A study of Mus musculus with 55 samples.

Results

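The Hox genes of 3 mouse fat depots were compared in 55 RNA sequencing libraries. The genes were taken as every row of the 3 depot count tables whose GENCODE symbol is Hox, a cluster letter from a to d and a paralogue number. That gave 36 genes of 31933 in each table. The annotation holds 39 such symbols, and the other 3, Hoxb13, Hoxc12 and Hoxd12, were not analysed here. Of the 36, 11 lie in the Hoxa cluster on chromosome 6, 9 in the Hoxb cluster on chromosome 11, 8 in the Hoxc cluster on chromosome 15 and 8 in the Hoxd cluster on chromosome 2 (GRCm38).

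Hox genes encode homeodomain transcription factors that give cells along the body axis their regional identity. Within a cluster they lie in the order in which they are used from head to tail, so that low paralogue numbers mark anterior and high numbers posterior levels, and adult fat cells and their progenitors keep much of this pattern. Many HOX proteins bind DNA together with PBX or MEIS partners, and Polycomb and Trithorax proteins hold the clusters silent or active.

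The libraries came from male C57BL/6NRj mice aged 10 weeks. The animals drank corticosterone, the main glucocorticoid of mice (GC), or placebo (Ctrl) over 4 weeks, and were housed at 22 °C (RT) or 13 °C (CT). RNA came from areas cut out by laser from 3 depots: the brown fat between the shoulder blades (iBAT), the white fat of the gonads (goWAT) and the white fat under the skin (scWAT). The groups Ctrl_RT, GC_RT, Ctrl_CT and GC_CT held 3, 5, 5 and 5 libraries for iBAT, then 4, 5, 5 and 5 for goWAT, and 4, 5, 5 and 4 for scWAT. How the areas were chosen is not stated, and no label names the animal of a library. Libraries of different depots, or of 1 group, may therefore come from 1 animal, and the p-values measure the spread between libraries, which may be partly technical.

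Levels are counts scaled to a common library size (CPM, with TMM factors over all libraries), and levels of different genes are compared only as CPM per kb of exon. Library totals ran from 8622178 to 56450653 counts, with medians of 19692104 in iBAT, 36440481 in goWAT and 26669500 in scWAT. All 7 brown adipocyte markers were found in every depot, and their summed level was 6397 to 42750 CPM in iBAT, between 16.6 and 1775 in goWAT and 63.4 to 3104 in scWAT. The 2 highest goWAT libraries on this list were GC_CT replicate 1 and GC_RT replicate 1, at 1775 and 1227 CPM. All 10 epididymis markers were found in goWAT. Their summed level was 1255 CPM in GC_RT replicate 5 and 464 and 3165 CPM in Ctrl_CT replicates 1 and 4. It was 0.109 to 45.5 CPM in the rest. Crisp1 alone reached 3163 CPM in Ctrl_CT replicate 4. Adam7 reached 102.8 CPM in goWAT, and each of the other markers stayed at or below 8.475 CPM. In goWAT Ctrl_CT, Adam7, Lcn9, Crisp4 and Cst11 were at 0 in every library. In iBAT and scWAT the sum stayed at or below 8.49 CPM, and 5 of the 10 were at 0 in every library. All 9 epithelial markers were found in scWAT, with 94.1 CPM for Ctrl_CT replicate 3 and 77.4, 302.1 and 354.5 CPM for replicates 3, 4 and 5 of GC_CT, against 0.133 to 2.42 CPM in the other 14 libraries.

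Every depot had its own Hox profile. Summed over the 36 genes, iBAT libraries held 26.6 to 64.8 CPM per kb (median 37.4), goWAT 59.96 to 116.2 (median 80.3) and scWAT 64.1 to 141.7 (median 83.2). Paralogues 9 to 13 made up a median of 1.27% of this sum in iBAT (0.277% to 3.00% over 18 libraries), 10.45% in goWAT (4.98% to 46.9% over 19) and 40.2% in scWAT (29.95% to 51.7% over 18). No iBAT library reached the share of any goWAT or scWAT library, whereas goWAT overlapped scWAT through GC_CT replicates 1 and 4, at 31.3% and 46.9%. Paralogues 1 to 4 ran the other way, with medians of 26.5% in iBAT, 11.6% in goWAT and 5.82% in scWAT. These shares describe the libraries and were not tested. The summed level of 7 progenitor and fibroblast markers, all found in every depot, was 154 to 1235 CPM in iBAT (median 316.9), 482.3 to 1963 in goWAT (median 1116) and 523.1 to 2626 in scWAT (median 918.3). That of 5 mesothelial markers, also all found, had medians of 4.06, 57.95 and 2.10 CPM. In iBAT and scWAT this was mostly Lrrn4, at medians of 4.03 and 1.77 CPM. Wt1, Upk3b, Upk1b and Msln had medians at or below 0.0621 CPM in these 2 depots. The part of these cell types in the Hox levels was not tested.

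**Figure D1:**
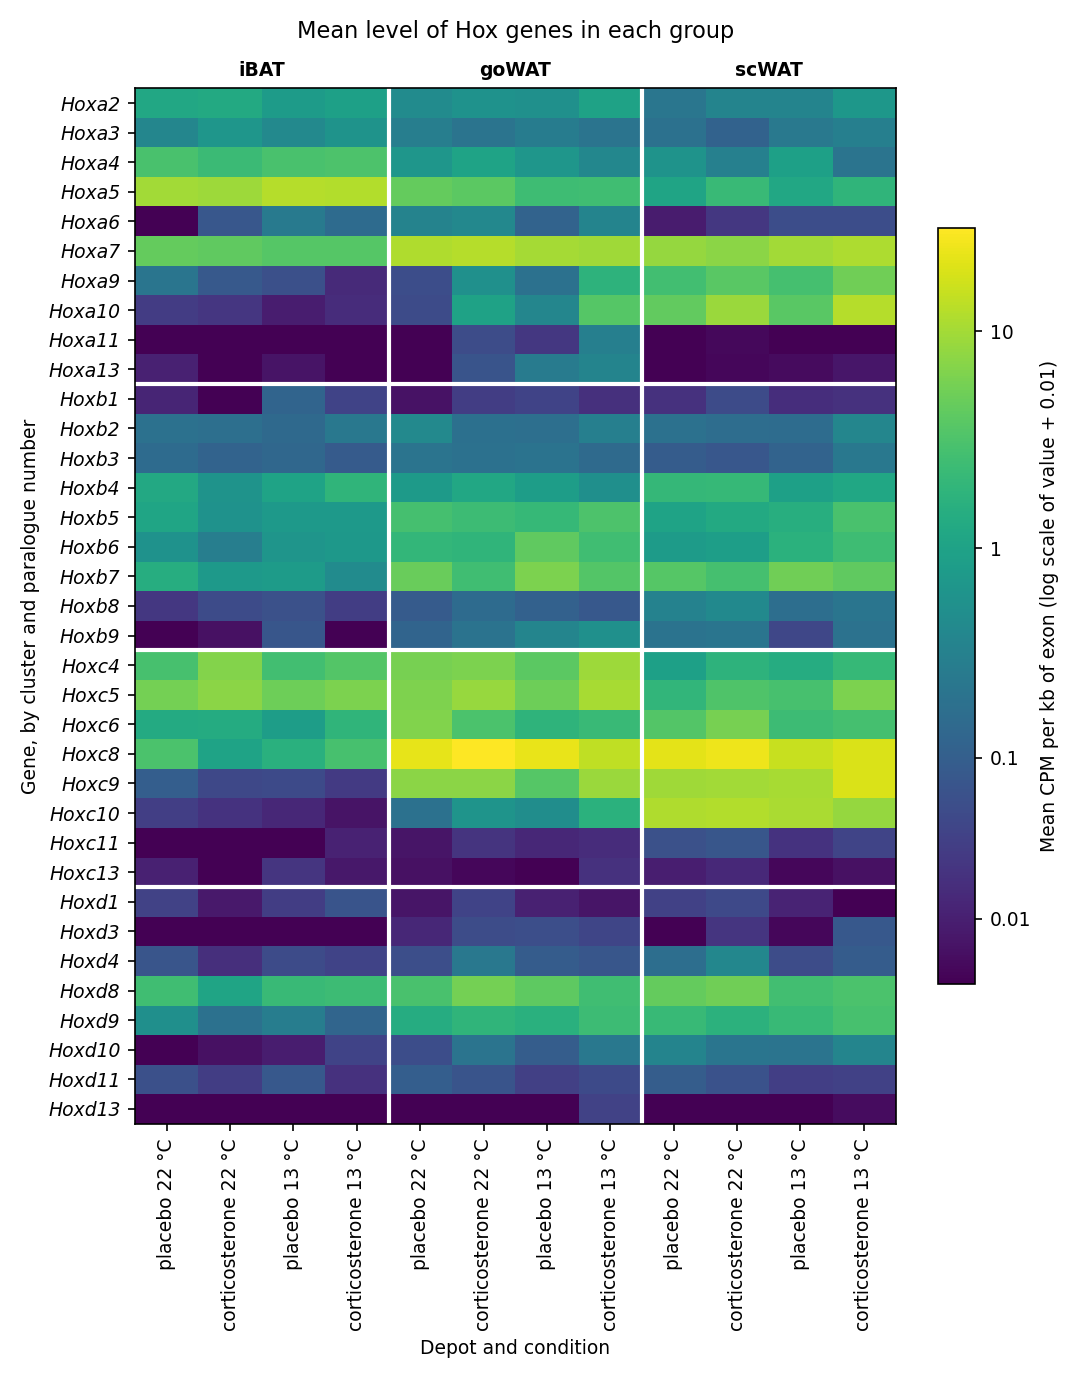
Mean level of Hox genes (rows, by cluster and paralogue number) in the 12 groups (columns, 4 conditions in each of 3 depots), as CPM per kb of exon on a log scale after adding 0.01. The bright block ends after Hoxa7 and Hoxc8 in iBAT, and reaches Hoxa10 and Hoxc10 in scWAT.

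The gene with the highest median level per kb was Hoxa5 in iBAT, at 10.2 CPM per kb, followed by Hoxc5 at 6.06 and Hoxa7 at 3.92. In goWAT, Hoxc8 led at 20.1 CPM per kb, before Hoxa7 at 10.52 and Hoxc9 at 7.12. In scWAT, Hoxc8 also led at 17.6 CPM per kb, before Hoxc9 at 10.7, Hoxc10 at 9.70 and Hoxa7 at 9.27. Hoxc8 and Hoxc9 are genes of trunk level, and Hoxa10 and Hoxc10 of lumbar level. The highest of the Hoxb cluster per kb was Hoxb4 in iBAT (0.961 CPM per kb) and Hoxb7 in goWAT (3.84) and scWAT (3.63), and of the Hoxd cluster it was Hoxd8 in all 3 depots (1.44, 3.21 and 3.46). The last genes of the Hoxa, Hoxc and Hoxd clusters were low. Hoxc11, Hoxc13 and Hoxd13 stayed below 1 CPM in every library, and Hoxa11 and Hoxa13 reached 1 CPM in 1 and 3 goWAT libraries and in none of the other depots.

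Whether Hox levels differ between iBAT and scWAT was tested with edgeR's quasi-likelihood test on the mean over the 4 conditions, and 30 of the 36 genes had enough counts for this test. Of these, 6 were higher in iBAT and 16 lower at a Benjamini-Hochberg adjusted p under 0.05, where 18.1% and 26.5% of all 22245 tested genes were called higher and lower (44.6% in all). The median log2 fold change was -1.11 over the 30 genes and -0.15 over all genes. Fitted values of Hoxa6, Hoxa13, Hoxb9, Hoxd3 and Hoxd10 rest in part on groups at 0 and are no bounds, and the median over the 30 is the same with Hoxd3 at its bound from the counts. The direction went with paralogue number. Of paralogues 1 to 4, 4 of 10 tested were higher in iBAT and 1 was lower. Of paralogues 5 to 8, 2 of 11 were higher and 8 lower, and of paralogues 9 to 13, 0 of 9 were higher and 7 lower. The medians of the first and second of these classes were -0.09 and -1.20. In bulk tissue, fewer cells that express a gene and less RNA of it per cell cannot be told apart.

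The genes higher in iBAT were Hoxa2, Hoxa3, Hoxa4, Hoxa5, Hoxc4 and Hoxc5. Hoxa5, which acts at the level of neck and upper thorax, stood at 9.49 to 35.1 CPM in iBAT (median 19.2), 3.32 to 10.6 in goWAT (median 5.59) and 0.930 to 10.3 in scWAT (median 2.29). All but 1 iBAT library lay above every scWAT and every goWAT library, the exception being Ctrl_RT replicate 2. Its log2 fold change against scWAT was 2.82 ± 0.20 (± SE throughout, adjusted p = 3.8e-16). Medians of the 4 groups were 16.4 to 22.2 CPM in iBAT, from 4.84 to 8.41 in goWAT and from 1.69 to 3.12 in scWAT. Hoxa4, its neighbour, stood at 1.90 to 6.83 CPM in iBAT and 0.0885 to 2.18 in scWAT, with 16 of 18 iBAT libraries above all of scWAT (2.68 ± 0.27, adjusted p = 9.9e-12). Hoxa4 shares 16% of its exon bases with Gm29430 and Hoxa3 shares 25.4% with other genes, and the libraries carry no strand, so reads of such pairs cannot be told apart. Hoxc4 stood at 1.53 to 42.6 CPM in iBAT (median 8.24) and 1.66 to 7.99 in scWAT (median 3.82), with 9 of 18 iBAT libraries above all of scWAT (1.30 ± 0.25, adjusted p = 1.9e-05).

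The genes lower in iBAT included every tested member of paralogue groups 9 and 10. Hoxc9 stood at 0 to 0.717 CPM in iBAT (median 0.0874) and 12.1 to 74.5 in scWAT (median 26.0), a log2 fold change of -7.82 ± 0.41 (adjusted p = 2.9e-20) that became -9.26 without iBAT Ctrl_RT replicate 2. Hoxa10 stood at 0 to 0.166 CPM in iBAT (median 0.075) and 7.99 to 54.1 in scWAT (median 18.6), a log2 fold change of -8.37 ± 0.67 (adjusted p = 3.1e-14). Hoxc10 stood at 0 to 0.166 CPM in iBAT and 8.68 to 35.2 in scWAT (median 18.5), a log2 fold change of -9.16 ± 0.75 (adjusted p = 4.9e-14). In iBAT these 3 genes thus stayed at or below 0.717 CPM in all 18 libraries. Hoxa9 and Hoxd9 were lower, at log2 fold changes of -5.77 ± 0.63 and -3.14 ± 0.26 (adjusted p = 1.8e-10 and 4.1e-14). The libraries of the 2 depots did not overlap for Hoxa9, Hoxa10, Hoxc9, Hoxc10 and Hoxd9, which is 5 of 30, against 0.904% of all genes tested. Hoxb9 had 16 counts over the iBAT libraries and 228 over those of scWAT, and was called lower (adjusted p = 2.4e-05). Hoxd10 had 9 and 294, and was called lower too (adjusted p = 1.0e-05). In iBAT, 2 groups of Hoxb9 and 1 of Hoxd10 were at 0, and no fold change is given for them. Hoxc10 shares 8.7% of its exon bases with Hoxc5, which is well expressed in iBAT. Hoxc10 had counts in 9 of the 18 iBAT libraries, and the part of shared bases in them was not tested.

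Between these ends, Hoxc8, Hoxb7, Hoxa7 and Hoxd8 were lower in iBAT by less than Hoxa9, Hoxa10, Hoxc9 and Hoxc10. Hoxc8 was lower by slightly more than Hoxd9. Hoxc8 stood at 0.197 to 36.6 CPM in iBAT (median 1.93) and 30.6 to 125.9 in scWAT (median 49.7), a log2 fold change of -3.33 ± 0.47 (adjusted p = 9.3e-08). It varied widely among iBAT libraries: GC_CT replicate 1 had 36.6 CPM and Ctrl_RT replicate 2 had 22.1, the other 16 had 11.96 or less, and only GC_CT replicate 1 entered the range of scWAT. Without this library the log2 fold change was -4.03. Hoxb7 stood at 0.0851 to 3.70 CPM in iBAT and 1.99 to 10.7 in scWAT (-2.25 ± 0.29, adjusted p = 5.6e-09). Hoxa7 was abundant in both, at 1.04 to 25.4 CPM in iBAT and 12.6 to 38.5 in scWAT (-1.20 ± 0.26, adjusted p = 1.8e-04), and shares 20.4% of its exon bases with Hoxaas3, a noncoding gene on the other strand. Hoxd8 stood at 0.255 to 18.8 CPM in iBAT and 3.73 to 22.2 in scWAT (-0.93 ± 0.27, adjusted p = 0.0043). Hoxb4 did not pass the test, with 0.685 to 8.76 CPM in iBAT and 1.05 to 11.6 in scWAT.

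**Figure D2:**
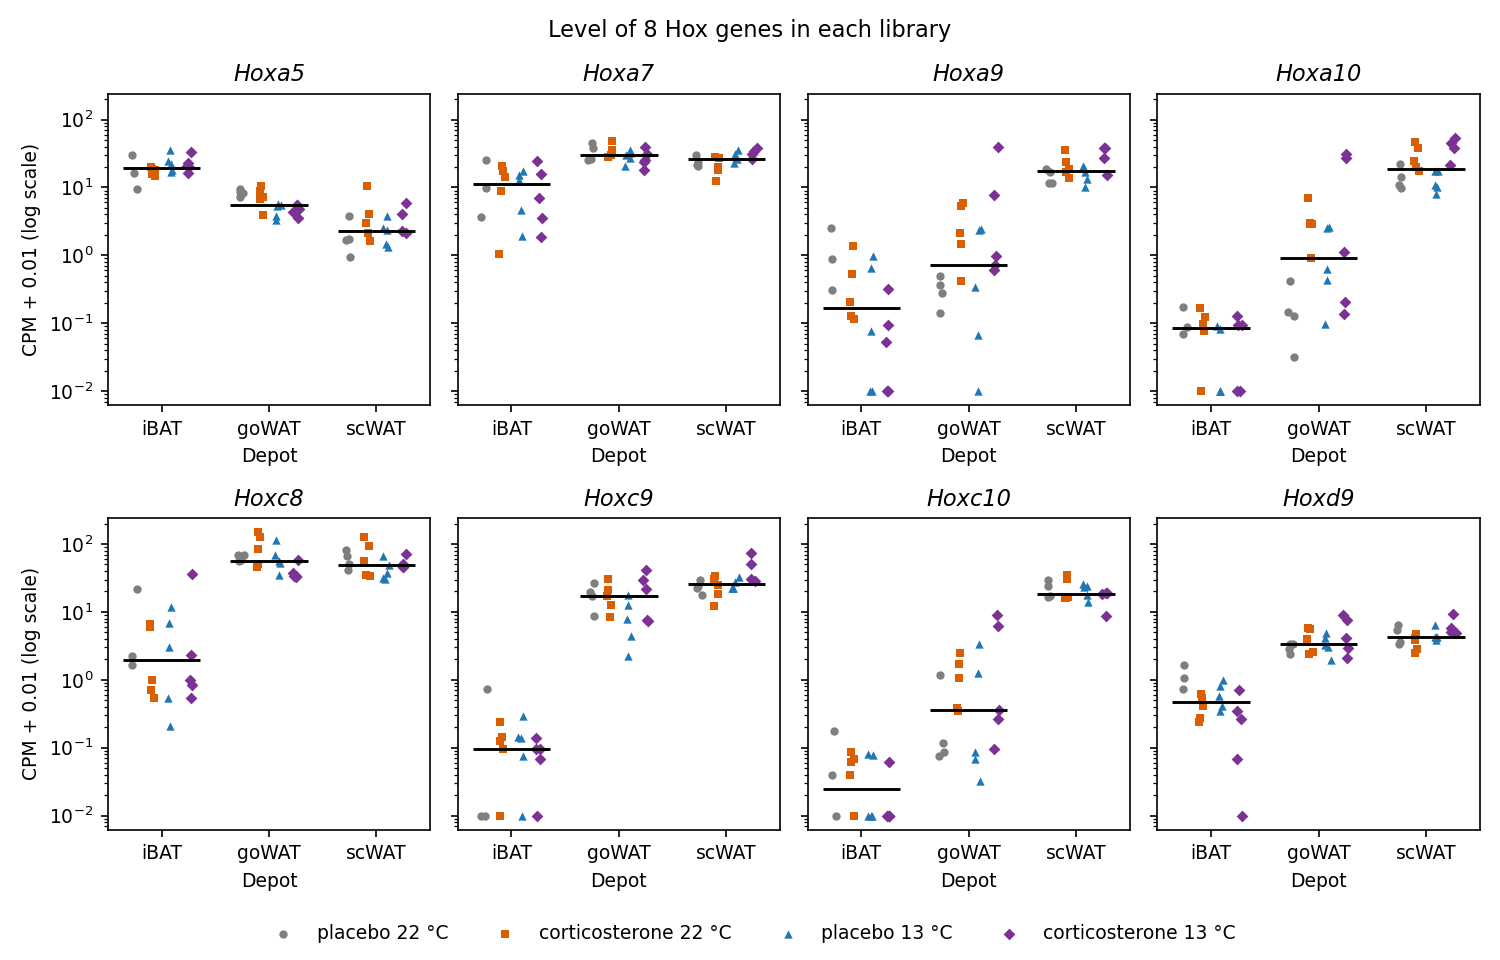
CPM plus 0.01 (log axis) of 8 Hox genes in each of the 55 libraries, by depot and condition, with the depot median as a line. Hoxa5 is highest in iBAT, and Hoxc9 and Hoxc10 lie at or below 0.717 and 0.166 CPM in every iBAT library. goWAT spreads over orders of magnitude in Hoxa9, Hoxa10 and Hoxc10.

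Bases just before annotated starts of Hoxa5, Hoxa9 and Hoxa10 are shown because these genes mark the change of level along the Hoxa cluster. They are RefSeq entries on GRCm38.p6, printed 5′ to 3′ on the minus strand that carries the genes, without annotated exon bases. Hoxa5 covers chr6:52204588-52204837. Hoxa9 covers chr6:52227371-52227620, inside the annotated span of the gene. The outer Hoxa10 start covers chr6:52240855-52241104 and the inner one, inside the gene span, chr6:52234940-52235189. Capitals mark a match to a searched motif.
Hoxa5: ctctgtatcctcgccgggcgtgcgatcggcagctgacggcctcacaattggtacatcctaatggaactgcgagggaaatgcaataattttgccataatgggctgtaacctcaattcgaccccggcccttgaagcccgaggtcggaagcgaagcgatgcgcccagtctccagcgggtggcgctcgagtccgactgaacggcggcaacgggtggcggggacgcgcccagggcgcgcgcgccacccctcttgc
Hoxa9: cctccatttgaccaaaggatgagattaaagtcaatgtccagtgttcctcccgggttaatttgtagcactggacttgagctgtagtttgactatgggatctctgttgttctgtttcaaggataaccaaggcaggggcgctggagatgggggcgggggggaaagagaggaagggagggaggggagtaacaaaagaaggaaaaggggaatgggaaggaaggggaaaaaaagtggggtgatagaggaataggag
Hoxa10 outer: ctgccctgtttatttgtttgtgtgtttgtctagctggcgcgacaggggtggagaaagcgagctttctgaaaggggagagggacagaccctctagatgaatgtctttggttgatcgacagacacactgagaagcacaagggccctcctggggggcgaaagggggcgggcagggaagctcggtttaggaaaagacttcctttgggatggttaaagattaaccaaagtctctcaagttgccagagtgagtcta
Hoxa10 inner: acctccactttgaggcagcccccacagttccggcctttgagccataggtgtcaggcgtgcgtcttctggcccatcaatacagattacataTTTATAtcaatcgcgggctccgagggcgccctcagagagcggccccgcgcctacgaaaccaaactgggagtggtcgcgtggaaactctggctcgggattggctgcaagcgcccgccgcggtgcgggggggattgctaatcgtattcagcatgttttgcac
The 3 motifs named next were searched on both strands in the 250 bases before each start. TATAAA, the TATA box, was found in the inner Hoxa10 window as its reverse complement, in 4 of 23 Hox windows and in 12.4% of all 32851 windows. TGATNNAT, a site bound by PBX and HOX together, was found in none of the 4 windows shown, in 4 of 23 Hox windows (Hoxa2, Hoxb1, Hoxb8 and Hoxd11) and in 7.68% of all. The full glucocorticoid receptor palindrome was found in 0 of 23 Hox windows and in 0.00913% of all. The Hoxa5 window holds 28 CpG dinucleotides, the Hoxa9 window 3, and the outer and inner Hoxa10 windows 7 and 20, where the median was 13 over the Hox windows and 6 over all. A match describes the letters only.

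Gonadal and subcutaneous white fat differed most at the posterior end of the Hoxa and Hoxc clusters. Of the 30 genes, 6 were higher in goWAT and 5 lower, where 8.91% and 9.12% of all genes were called (18% in all), and the median log2 fold change was 0.21 over the 30 and 0.02 over all genes. Lower in goWAT were Hoxa9, Hoxa10, Hoxc9, Hoxc10 and Hoxb4. Higher were Hoxc4, Hoxc5, Hoxa5, Hoxa6, Hoxb6 and Hoxd3. This comparison and that of iBAT with scWAT share the scWAT libraries.

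Hoxc10 stood at 0.0222 to 8.89 CPM in goWAT (median 0.345), and 18 of 19 libraries lay below all of scWAT (-4.25 ± 0.46, adjusted p = 1.7e-09). Hoxa10 stood at 0.0221 to 30.8 CPM (median 0.918), with 17 of 19 libraries below all of scWAT (-3.65 ± 0.43, adjusted p = 1.4e-08). Hoxa9 stood at 0 to 39.03 CPM (median 0.721), with 18 of 19 below all of scWAT and GC_CT replicate 4 above all of it (-3.48 ± 0.49, adjusted p = 6.0e-07). Hoxc9 and Hoxd9 were well above 0 in every goWAT library. Hoxc9 stood at 2.20 to 41.3 CPM (median 17.3) and was lower than in scWAT by a log2 fold change of -0.85 ± 0.25 (adjusted p = 0.011), and Hoxd9, at 1.93 to 9.01 CPM in goWAT and 2.44 to 9.22 in scWAT, did not pass the test. No Hox gene separated goWAT from scWAT in every library, where 0.139% of all genes did.

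At the anterior end, Hoxc4 stood at 5.56 to 41.5 CPM in goWAT (median 15.5), with 16 of 19 libraries above all of scWAT (2.01 ± 0.25, adjusted p = 1.9e-08). Hoxc5 stood at 13.6 to 45.9 CPM in goWAT (median 21.1) and 3.495 to 27.95 in scWAT (median 9.70), with overlap in most libraries (1.16 ± 0.16, adjusted p = 1.5e-07). Hoxa5 was higher in goWAT by 1.09 ± 0.19. Hoxa6 and Hoxd3 were called at low levels, with medians of 0.214 and 0.148 CPM in goWAT and 0 in scWAT, and Hoxd3 lost the call with DESeq2 (adjusted p = 0.079) and in an additive fit of depot and condition (adjusted p = 0.15). Hoxb6 lost its call without goWAT Ctrl_CT replicate 4, and Hoxb4 without scWAT Ctrl_RT replicate 1. The fit without the 4 scWAT libraries rich in keratins left scWAT GC_CT with replicate 1 alone. It therefore cannot decide which of the 11 calls hold without them.

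**Figure D3:**
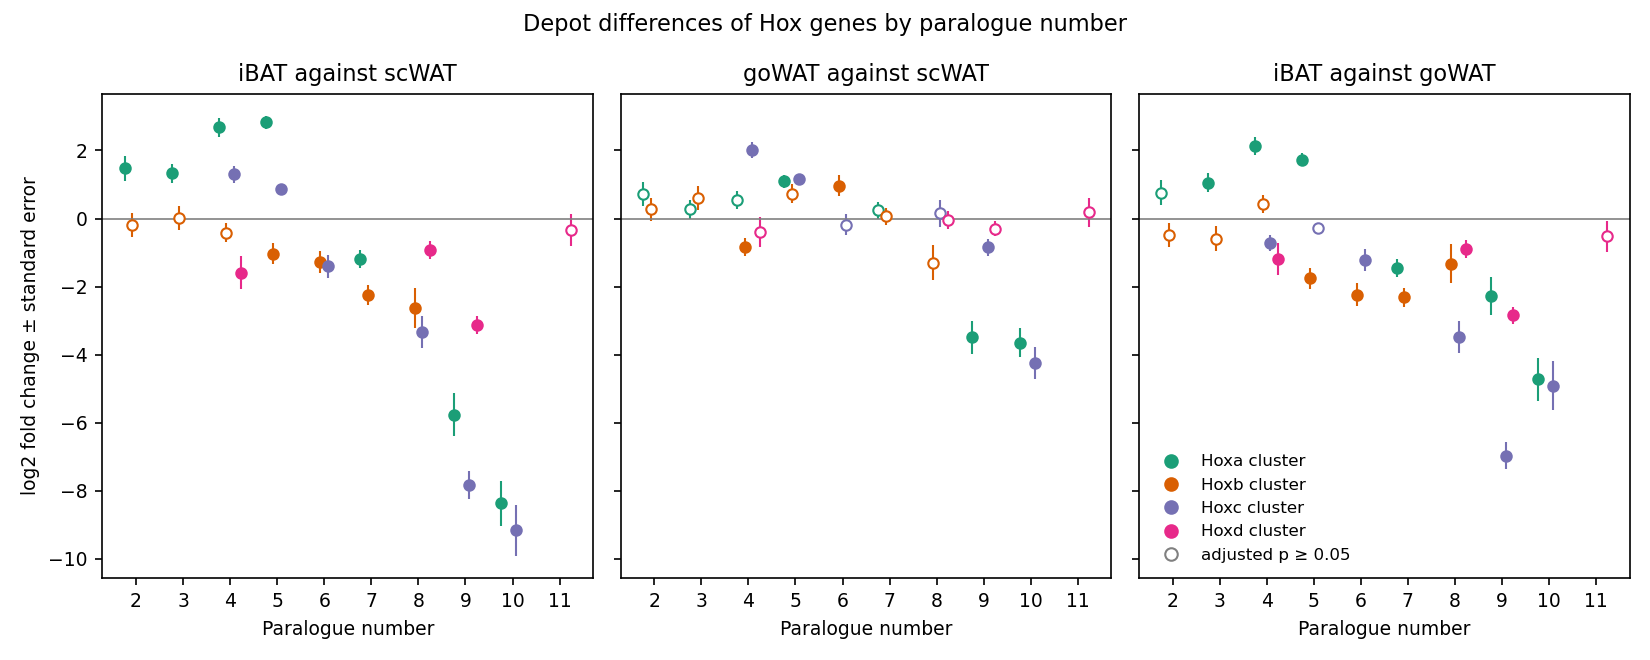
log2 fold change (± standard error) between depots against paralogue number, with clusters in colour and filled points where the adjusted p was under 0.05. Hoxa6, Hoxa13, Hoxb9, Hoxd3 and Hoxd10, with groups at 0, are not drawn. Against scWAT, iBAT falls below 0 from paralogue 6 on, and goWAT departs furthest at Hoxa9, Hoxa10 and Hoxc10.

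Against goWAT, 3 of the 30 genes were higher in iBAT and 19 lower, where 23.3% and 34.1% of all genes were called (57.4% in all). The medians were -1.39 over the 30 genes and -0.20 over all. Higher in iBAT were Hoxa3, Hoxa4 and Hoxa5, by 1.05 ± 0.28, 2.14 ± 0.26 and 1.73 ± 0.19. Hoxc9 and Hoxd9 did not overlap between the depots, 2 of 30 genes against 3.11% of all, and were lower in iBAT, at log2 fold changes of -6.97 ± 0.40 and -2.85 ± 0.26. Without iBAT Ctrl_RT replicate 2 the value of Hoxc9 was -8.41. Hoxd9 stood at 0 to 1.65 CPM in iBAT (median 0.468) and at 1.93 or more in each goWAT library. Hoxb5, Hoxb6 and Hoxb7 were lower, at log2 fold changes of -1.76 ± 0.30, -2.24 ± 0.33 and -2.32 ± 0.29. Hoxb8, lower at a log2 fold change of -1.33 ± 0.57 with an adjusted p of 0.044, lost its call in 20 of the 55 fits that each left out 1 library, and stood at -2.12 (adjusted p = 0.0017) without iBAT GC_RT replicate 3.

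Members at 0 in a whole depot were found in iBAT alone. Hoxd3 had 0 counts in iBAT, 134 in goWAT and 62 in scWAT, which is at least 21.2-fold higher in goWAT and at least 12.1-fold higher in scWAT when iBAT is set to a floor of 3 counts over the depot (0.00877 CPM). Hoxd3 shares 9.76% of its exon bases with Hoxd4, Hoxd3os1 and Haglr together, and Hoxd4 stood at 0 to 0.329 CPM in iBAT. Hoxa11 and Hoxd13 also had 0 counts in iBAT, and 1 count each in scWAT. Hoxa11 had 207 counts in goWAT, with GC_CT replicate 4 at 3.38 CPM against 0 to 0.300 in the other 18 libraries. Hoxd13 had 15 counts in goWAT, all in GC_CT replicate 2. Hoxb1, Hoxc11, Hoxc13 and Hoxd1 had 2 to 63 counts per depot and, with Hoxa11 and Hoxd13, were too low for the test.

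The depot differences had the sign of the mean over the 4 conditions in most of them. The genes were called on that mean, so agreement with its sign is partly fixed by the choice and is no separate support. Of the 22 genes called between iBAT and scWAT, 18 had that sign in all 4 conditions and 6 were called in each of them, namely Hoxa4, Hoxa5, Hoxa10, Hoxc9, Hoxc10 and Hoxd9. Of the 11 called between goWAT and scWAT, 10 kept the sign in all 4 and Hoxc4 was called in each. Of the 22 called between iBAT and goWAT, 18 kept the sign and Hoxc9 was called in each. Within single conditions, in the order Ctrl_RT, GC_RT, Ctrl_CT and GC_CT, 7, 22, 11 and 14 of the 30 genes were called between iBAT and scWAT, where 2.81%, 33.7%, 18% and 30.9% of all genes were. Between goWAT and scWAT the counts were 6, 4, 5 and 1, where 4.33%, 2.46%, 5.58% and 0.737% of all genes were called. Between iBAT and goWAT they were 4, 17, 13 and 19, where 14.7%, 26.9%, 36.1% and 38.9% of all genes were called, so that the first of these was no more than the background.

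Across the 4 conditions the depot order was also visible in group medians, given here as the lowest and highest of the 4 in CPM. Among genes that lead their clusters, Hoxa7 ran from 6.96 to 14.1 in iBAT, from 25.6 to 32.9 in goWAT and from 20.2 to 32.8 in scWAT. Hoxc8 ran from 0.976 to 3.06 in iBAT, from 34.0 to 83.9 in goWAT and from 37.3 to 59.0 in scWAT. Hoxc5 ran from 11.7 to 21.6 in iBAT, from 15.01 to 34.9 in goWAT and from 6.00 to 16.9 in scWAT. These genes had their highest group medians in white fat, Hoxc5 in goWAT and Hoxa7 and Hoxc8 in goWAT too. Among the genes of groups 9 and 10, Hoxc9 ran from 0 to 0.131 in iBAT, from 7.87 to 21.9 in goWAT and from 22.9 to 40.5 in scWAT. Hoxa10 ran from 0 to 0.0875 in iBAT, from 0.126 to 2.92 in goWAT and from 10.7 to 41.3 in scWAT. Hoxc10 ran from 0 to 0.0525 in iBAT, from 0.0754 to 1.07 in goWAT and from 16.4 to 23.1 in scWAT. The group medians of Hoxa10 and Hoxc10 did not overlap between goWAT and scWAT in any condition. Hoxd9 ran from 0.257 to 1.06 in iBAT, from 3.10 to 4.13 in goWAT and from 3.84 to 5.41 in scWAT. Hoxd8 ran from 2.80 to 6.79 in iBAT, from 7.36 to 17.7 in goWAT and from 4.996 to 15.4 in scWAT. Hoxb7 ran from 0.297 to 2.06 in iBAT, from 3.59 to 7.73 in goWAT and from 3.08 to 7.91 in scWAT. Hoxb7, Hoxd8 and Hoxd9 thus had overlapping group medians in the white depots. Hoxb4 ran from 1.98 to 3.60 in iBAT, from 1.38 to 4.27 in goWAT and from 1.92 to 4.29 in scWAT. Hoxc4 ran from 6.62 to 12.4 in iBAT, from 7.61 to 16.6 in goWAT and from 2.27 to 5.73 in scWAT. Hoxa4 ran from 3.67 to 5.53 in iBAT, from 0.663 to 1.77 in goWAT and from 0.287 to 1.72 in scWAT.

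Whether a depot difference changes with condition was tested with the F-test of edgeR's quasi-likelihood fit on all depot-by-condition terms of the 12 groups at once. It called Hoxa9 alone (adjusted p = 0.021), 1 of 30 genes, where 9.61% of all genes were called. In iBAT, Hoxa9 stood at 0.302, 2.48 and 0.865 CPM in Ctrl_RT and at 0.0851, 0, 0.308, 0.0424 and 0 in GC_CT. In goWAT it stood at 0.133, 0.350, 0.479 and 0.272 CPM in Ctrl_RT and at 7.66, 0.605, 0.970, 39.03 and 0.721 in GC_CT. In scWAT it stood at 17.02, 11.7, 18.7 and 11.7 CPM in Ctrl_RT and at 15.3, 26.9, 38.4 and 37.5 in GC_CT. Between iBAT and goWAT the log2 fold change was 1.95 ± 1.14 in Ctrl_RT (adjusted p = 0.26) and -6.78 ± 1.23 in GC_CT (adjusted p = 2.2e-05). The call was lost without iBAT Ctrl_RT replicate 2 (adjusted p = 0.060). The fit without the keratin-rich scWAT libraries left scWAT GC_CT with replicate 1 alone and cannot decide whether the call holds.

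Within depots, corticosterone and cold were compared in 5 contrasts each, and 2 calls of a Hox gene were made over the 15 comparisons. A gene that missed the threshold is not thereby shown to be equal between groups. In iBAT, 19 Hox genes were tested and 0 were called in any of the 5, where 0.664%, 0.728%, 0.0175%, 0.00583% and 0% of all 17163 genes were called. At an unadjusted p under 0.05 there were 0 for corticosterone at 22 °C, 0 at 13 °C, 0 for cold with placebo, 1 for cold with corticosterone and 1 for the interaction, which is the corticosterone effect at 13 °C minus that at 22 °C. DESeq2 called Hoxb4 for cold with corticosterone and none in the other 4, and limma with library weights called none.

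In goWAT, 30 Hox genes were tested. Corticosterone at 13 °C raised Hoxc5, 1 of 30 genes, where 1.45% of all 20175 genes were called. Hoxc5 stood at 15.01, 13.6, 14.3, 19.4 and 17.7 CPM in Ctrl_CT and at 22.7, 35.7, 34.9, 21.1 and 45.9 in GC_CT. The 2 groups did not overlap, and the log2 fold change was 1.02 ± 0.22 (adjusted p = 0.022). At 22 °C it stood at 18.8, 22.6, 16.8 and 19.4 CPM in Ctrl_RT and at 30.1, 27.5, 31.0, 16.3 and 27.5 in GC_RT, with GC_RT replicate 4 below all of Ctrl_RT (0.49 ± 0.24, adjusted p = 0.22). The call at 13 °C was lost without the 3 libraries with epididymis transcripts (1.11, adjusted p = 0.10), and also when any 1 of Ctrl_CT replicates 1, 2, 3 or 5 or GC_CT replicates 3 or 5 was left out. Hoxc4, which lies beside it, had 1.23 ± 0.36 (adjusted p = 0.085) and was called by DESeq2 and limma.

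The other 4 goWAT contrasts made 0 calls, where 5.98% of all genes were called for corticosterone at 22 °C, 0.312% for cold with placebo, 0.0149% for cold with corticosterone and 0.461% for the interaction. Unadjusted p under 0.05 was reached by 7, 3, 5 and 5 of the 30 genes. DESeq2 called 1 (Hoxa10), 1 (Hoxc6), 2 (Hoxc8 and Hoxd8) and 1 (Hoxd8). Limma called 1 (Hoxc6), 1 (Hoxc6), 0 and 0. Hoxc6 had -1.85 ± 0.42 for cold with placebo (adjusted p = 0.067), and its call came when either Ctrl_CT replicate 1, Ctrl_RT replicate 3, GC_RT replicate 1 or GC_RT replicate 4 was left out.

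The 2 largest fold changes in goWAT with unadjusted p under 0.05 for corticosterone at either temperature were those of Hoxa10 and Hoxa9. Hoxa10 stood at 0.0221, 0.135, 0.407 and 0.117 CPM in Ctrl_RT and at 6.88, 2.92, 2.96, 0.918 and 2.87 in GC_RT, without overlap, a log2 fold change of 4.30 ± 1.52 (adjusted p = 0.10). At 13 °C it stood at 2.54, 2.57, 0.0868, 0.623 and 0.427 CPM in Ctrl_CT and at 26.8, 0.127, 1.10, 30.8 and 0.197 in GC_CT, with overlap (3.25 ± 1.25, adjusted p = 0.21). GC_CT replicates 1 and 4 were within the scWAT range for Hoxa10 and the other 17 goWAT libraries below it. GC_CT replicate 4 was also the highest goWAT library for Hoxa9 (39.03 CPM), Hoxa11 (3.38), Hoxa13 (4.25), Hoxc9 (41.3) and Hoxc10 (8.89). Its summed epididymis markers were at 3.97 CPM, its brown adipocyte markers at 43.3 CPM and its epithelial markers at 162.4 CPM, the second highest of goWAT, and their part in these levels was not tested. GC_CT replicate 1, with Hoxa10 at 26.8 and Hoxc10 at 6.28 CPM, and GC_RT replicate 1, with 6.88 and 2.45, were the 2 goWAT libraries rich in brown adipocyte markers, whose part in these levels was not tested. Without these 2 libraries, 11 Hox genes were called between goWAT and scWAT, and all 11 were those called with them.

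The goWAT library with the most epididymis transcripts stood at an end of the goWAT range for several Hox genes. It was also the highest of goWAT in epithelial markers (354.8 CPM) and mesothelial markers (112.8 CPM). Crisp1 made up 3163 CPM of its summed epididymis markers. Ctrl_CT replicate 4, at 3165 CPM of epididymis markers, had the highest goWAT levels of Hoxb6 (24.8 CPM, others 0.918 to 8.21), Hoxb7 (21.8, others 3.06 to 10.1) and Hoxb9 (3.78, others 0.0267 to 3.57). It had the lowest goWAT level of Hoxc9 (2.20 CPM) and Hoxc10 (0.0222). Hoxa13, which marks the most posterior and genital levels, stood at 2.19 and 1.12 CPM in Ctrl_CT replicates 1 and 2, 0.750 in GC_RT replicate 5 and 0 in Ctrl_CT replicate 4. The highest Hoxa13 level, 4.25 CPM, was in GC_CT replicate 4, with 3.97 CPM of epididymis markers. Ctrl_CT replicates 1 and 2 had 464 and 5.70 CPM of these markers, and GC_RT replicate 5 had 1255. The part of epididymal, epithelial and mesothelial cells in the Hox levels of these libraries was not tested.

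**Figure D4:**
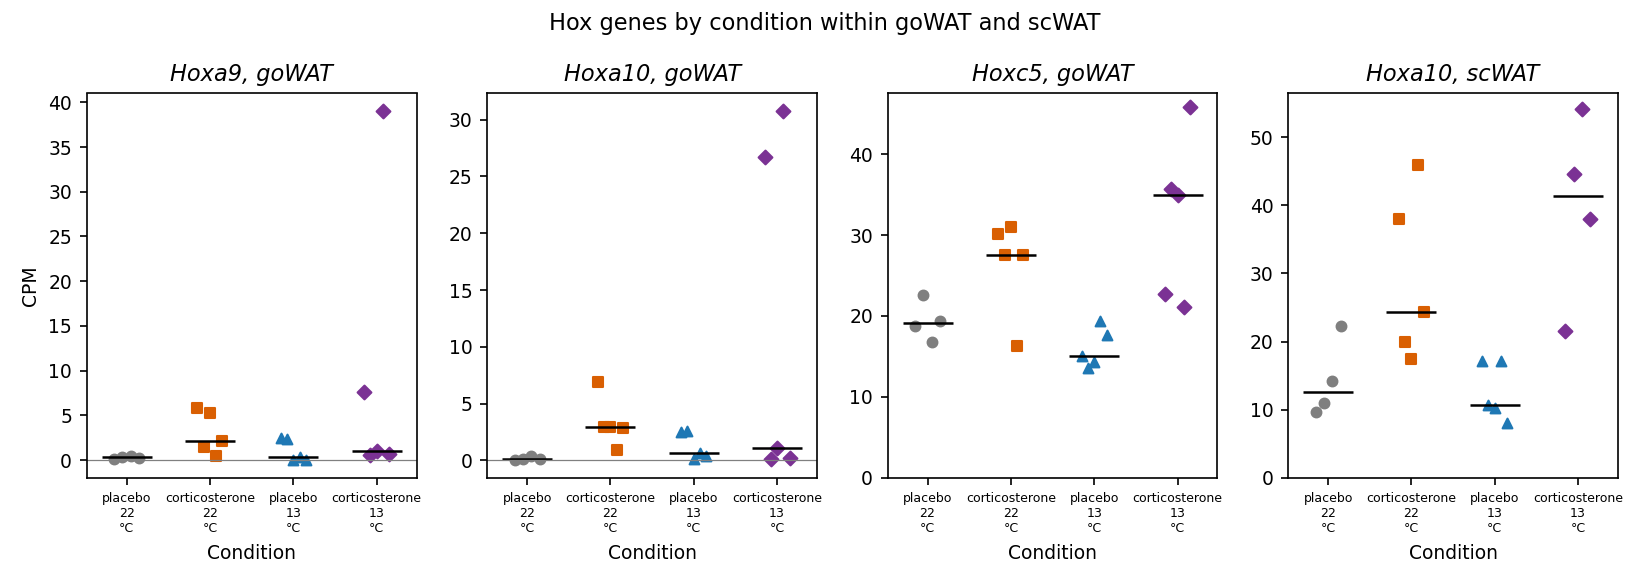
CPM of Hoxa9, Hoxa10 and Hoxc5 in goWAT and of Hoxa10 in scWAT, for each library of the 4 conditions, with the group median as a line. GC_CT replicates 1 and 4 carry the goWAT levels of Hoxa10 at 26.8 and 30.8 CPM, and in scWAT the 4 GC_CT libraries lie above the 5 Ctrl_CT libraries.

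In scWAT, 26 Hox genes were tested. Corticosterone at 13 °C raised Hoxa10, 1 of 26 genes, where 2.59% of all 19003 genes were called. Hoxa10 stood at 17.2, 10.7, 10.2, 17.2 and 7.99 CPM in Ctrl_CT and at 21.5, 44.7, 54.1 and 38.0 in GC_CT. The 2 groups did not overlap, and the log2 fold change was 1.62 ± 0.34 (adjusted p = 0.0090). At 22 °C it stood at 9.66, 10.97, 14.3 and 22.2 CPM in Ctrl_RT and at 38.0, 19.9, 17.4, 45.9 and 24.3 in GC_RT, with overlap, a log2 fold change of 1.01 ± 0.34 (adjusted p = 0.079). The interaction did not pass the test for any Hox gene. The call at 13 °C was kept when any 1 scWAT library was left out. Without the 4 keratin-rich libraries, which leaves GC_CT with replicate 1 alone, the log2 fold change was 0.69. That fit cannot decide whether the call holds without them. The 3 GC_CT libraries with 77.4 to 354.5 CPM of epithelial markers had 38.0 to 54.1 CPM of Hoxa10, and replicate 1, with 0.133 CPM of these markers, had 21.5. Ctrl_CT replicate 3, also rich in these markers, had 10.2 CPM of Hoxa10. The part of epithelial cells in the result was not tested.

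No other Hox gene passed the test in scWAT. Under corticosterone at 13 °C, Hoxc5 had 1.07 ± 0.35 (adjusted p = 0.11), Hoxa9 0.87 ± 0.31 (adjusted p = 0.14), Hoxc9 0.83 ± 0.30 (adjusted p = 0.16) and Hoxa4 -2.18 ± 0.67 (adjusted p = 0.085). The median log2 fold change was 0.60 over the 26 genes and 0.01 over all genes. DESeq2 and limma each called 3, which were Hoxa10, Hoxa4 and Hoxc5. In the remaining 4 contrasts, 0 were called, where 6.93% of all genes were called for corticosterone at 22 °C, 0% for cold with placebo, 8.18% for cold with corticosterone and 0% for the interaction. Unadjusted p under 0.05 was reached by 3, 1, 9 and 0 genes, DESeq2 called 1, 0, 2 and 0, and limma called 0, 0, 6 and 0. For cold with corticosterone, the smallest adjusted p values were 0.056 for Hoxc9 (0.95 ± 0.30) and 0.060 for Hoxb6 (1.47 ± 0.48).

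The PBX, MEIS and PKNOX genes encode the TALE partners of HOX proteins, and 9 of 9 were tested. Between iBAT and scWAT, 1 was higher and 2 lower, between goWAT and scWAT 1 higher and 1 lower, and between iBAT and goWAT 2 higher and 3 lower, where 44.6%, 18% and 57.4% of all genes were called. These shares are near or below the background. Meis1 stood at 2.84 to 10.2 CPM in iBAT, between 11.5 and 37.0 in goWAT and 2.91 to 13.6 in scWAT, and was higher in goWAT than in scWAT by 1.41 ± 0.17 (adjusted p = 1.3e-08). Meis3 was lower in iBAT than in scWAT (-1.62 ± 0.27, adjusted p = 1.6e-06). Pbx4 was higher in iBAT (2.29 ± 0.43), from a median of 0.213 CPM in scWAT to 0.984 CPM. None of the 9 was called in the 15 comparisons within depots.

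Of 10 noncoding genes of the clusters, 8 had rows and were tested. Between iBAT and scWAT 3 were higher and 2 lower, between goWAT and scWAT 1 higher, and between iBAT and goWAT 2 higher and 2 lower, beside the same 44.6%, 18% and 57.4% of all genes. With 8 genes, these counts are not read as particular to the list. Hotairm1, a noncoding RNA read from the start of the Hoxa cluster, stood at 21.02 to 145.2 CPM in iBAT (median 39.6) and 8.08 to 34.3 in scWAT (median 18.2), a log2 fold change of 1.61 ± 0.21 (adjusted p = 9.2e-09). Haglr, antisense in the Hoxd cluster, was at a median of 0 CPM in iBAT and 0.187 in goWAT (adjusted p = 7.4e-04, with no fold change given since iBAT groups were at 0). Hoxa11os, antisense to Hoxa11, was at most 0.0303 CPM in iBAT and reached 5.39 CPM in 1 goWAT library. None of the 8 was called within a depot.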

How the data were processed

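The 55 libraries were made from about 2 ng of RNA with an unstranded full-length method, per the labels' protocols. Per the submitters' processing notes, FastQC, GSNAP, featureCounts 1.6.3 and mm10 were used. For the annotation release, the strand setting and multiply mapped reads, the choice made is not given in the sources used here. The deposited values are whole-number counts per gene, 1 table per depot. The authors' counts were used as deposited, with symbols, exon lengths and coordinates from GENCODE M21, in which 31894 of 31933 gene identifiers matched.

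Depots were compared in 1 fit of all 12 groups and conditions within each depot, with edgeR 4.0.16 (R 4.3.3), TMM scaling, filterByExpr (minimum count 10, total 15) and quasi-likelihood tests. Adjusted p-values are Benjamini-Hochberg over all genes tested, called under 0.05. The biological coefficient of variation was 53% over all depots. The tests were checked on simulated data. Alternatives were RLE factors, no filter, DESeq2 1.42.0, limma 3.58.1 with library weights, a replicate block, sets of libraries left out and each library left out. An additive fit of depot and condition was added after seeing the data.

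Members, lists and marker genes were chosen with earlier results of these data known. Genes were named if among the 4 smallest adjusted p of a depot comparison, called within a depot, highest per kb in a cluster, or at 0 in a depot and called. Other members named were chosen after their values were seen. Replicate numbers were not used to pair libraries, except in the replicate block. Values of 1 member and 1 cofactor are not reported here.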

Additional observations from a re-analysis of the deposited data

Results flagged for a closer look

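Hoxa9 stood at 39.03 CPM in goWAT GC_CT replicate 4, where the other 4 libraries of the group had 0.605 to 7.66, and was singled out as a sample far from the others. Hoxa9 stood at 0.308 CPM in iBAT GC_CT replicate 3, where the others had 0 to 0.0851, a level of few counts. Hoxc5 stood at 16.3 CPM in goWAT GC_RT replicate 4, where the others had 27.5 to 31.0. In all, 19 pairs of 1 gene and 1 group were examined for such a library and 3 had one. The threshold gives about 1 in 20 for normally spread values, which these levels need not be. The genes examined were picked from calls in these data.

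The depot difference of Hoxa9 varied with condition (adjusted p = 0.021, edgeR quasi-likelihood test). Its log2 fold change between goWAT and scWAT was -5.57 ± 1.16 in Ctrl_RT and -1.59 ± 0.88 in GC_CT, and goWAT GC_CT replicate 4 is part of the latter.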

How the results depend on the processing

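The settings were RLE factors, which moved the median of all genes by at most 0.045 (log2), no filter, DESeq2, limma and a replicate block. The additive fit added after seeing the data and sets of libraries left out were further settings. The fit without keratin-rich scWAT libraries is not counted here, since it left scWAT GC_CT with replicate 1 alone. Under the rest, 22 to 23 of the tested Hox genes were called between iBAT and scWAT and 21 to 23 between iBAT and goWAT. Between goWAT and scWAT the count was 10 to 14. Leaving out each library gave 22 to 23, 20 to 23 and 10 to 12. The placebo groups at 22 °C alone gave 7, 4 and 6, from fewer libraries. In these groups alone the sign turned, without a call, for Hoxa9 (1.95, adjusted p = 0.26) and Hoxd4 (0.29, adjusted p = 0.89) between iBAT and goWAT and for Hoxb5 (0.12, adjusted p = 0.96) between iBAT and scWAT. No other member called between depots changed direction in these fits.

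The count of Hox genes whose depot difference varied with condition was 1 in edgeR, 8 with DESeq2 and 11 with limma. Of all 22245 genes, edgeR called 2137, DESeq2 4286 and limma 7081. Without epididymis-rich and brown-marker-rich libraries the Hox count was 3 and 4, and 1682 of 21841 and 2848 of 22208 genes were called. Without macrophage-rich and muscle-rich libraries it was 2 and 2, and 1537 of 22031 and 2384 of 23332 genes were called. The fit without keratin-rich libraries left scWAT GC_CT with replicate 1 alone, and its count is not given. With each library left out the Hox count was 0 to 5. Whether libraries with the same replicate number are paired is not known. Over 53 pairs with the same number and condition in 2 depots, the correlation was -0.166 to 0.35. Its median was 0.04 and 16 pairs were over 0.1. Pairs with different numbers were not examined, so these values cannot settle the question. With a block of condition and replicate number in edgeR, 0 Hox genes were called for a depot difference that varied with condition (Hoxa9 adjusted p = 0.11). Within a depot the block was the replicate number alone, which joins libraries of different conditions and so of different animals. With it, the corticosterone effect in goWAT at 13 °C had 0 calls (Hoxc5 0.97, adjusted p = 0.057). That fit therefore does not allow for pairing by animal. The block ended no other call of a Hox gene within a depot.

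Within depots, DESeq2 called 1 Hox gene for cold with corticosterone in iBAT, where it called 388 of all 17163 genes. In goWAT, corticosterone at 22 °C had 1 call with DESeq2, 1 with limma, 1 without brown-marker-rich libraries and 0 to 1 with each library left out. Corticosterone at 13 °C had 2 with DESeq2, 2 with limma, 0 without epididymis-rich libraries and 0 to 1 with each library left out. Cold with placebo had 1 with no filter, 1 with DESeq2, 1 with limma and 0 to 1 with each library left out. Cold with corticosterone had 2 with DESeq2 and 0 to 2 with each library left out, and the interaction had 1 with DESeq2. In scWAT, corticosterone at 22 °C had 1 with DESeq2 and 1 without macrophage-rich libraries. Corticosterone at 13 °C had 3 with DESeq2 and 3 with limma. The count without keratin-rich libraries, which left GC_CT with replicate 1 alone, is not given. Cold with corticosterone had 2 with DESeq2, 6 with limma and 0 to 4 with each library left out. In goWAT, of all 20175 genes, DESeq2 called 2204 and 897 for corticosterone at 22 °C and 13 °C, and limma 1013 and 2214. For cold with placebo they called 196 and 189. DESeq2 called 418 for cold with corticosterone and 413 for the interaction. Without brown-marker-rich libraries, 2113 of 20097 genes were called in goWAT for corticosterone at 22 °C. Without epididymis-rich libraries it was 91 of 20155 for corticosterone at 13 °C. With no filter it was 60 of 31730 for cold with placebo. In scWAT, of all 19003, DESeq2 called 2256 and 1111 for corticosterone at 22 °C and 13 °C, and 2784 for cold with corticosterone. Limma called 1523 for corticosterone at 13 °C and 2844 for cold with corticosterone. Without macrophage-rich libraries, 738 of 19208 genes were called in scWAT for corticosterone at 22 °C. The cause of these differences between settings was not tested. Members with few counts per depot could not be tested.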

Other observations

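Polycomb and Trithorax genes, whose proteins keep Hox clusters silent or active, were called between depots in both directions. Of 17 tested, 2 were higher and 6 lower in iBAT than in scWAT, 2 were higher and 4 lower in goWAT than in scWAT, and 6 were higher and 5 lower in iBAT than in goWAT, where 44.6%, 18% and 57.4% of all genes were called. Ezh2, a histone methyltransferase of Polycomb, had medians of 6.13 CPM in iBAT, 3.66 in goWAT and 7.72 in scWAT, and was lower in goWAT than in scWAT by a log2 fold change of -0.91 ± 0.17 (adjusted p = 6.6e-05, edgeR quasi-likelihood test). Cbx7, a subunit that reads the Polycomb mark, was lower in iBAT than in scWAT by -0.90 ± 0.19, and fell with corticosterone at 22 °C in goWAT by a log2 fold change of -1.31 ± 0.36 (adjusted p = 0.032). Ezh1 rose with corticosterone at 22 °C in scWAT (0.83 ± 0.22, adjusted p = 0.023). No other gene of this list was called within a depot.

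Of 10 genes beside the clusters, 8 were tested, and 4 were higher and 3 lower in iBAT than in scWAT, where 18.1% and 26.5% of all genes were. Between goWAT and scWAT, 0 were higher and 1 was lower, where 8.91% and 9.12% of all genes were. Skap2, Snx10 and Hibadh, which lie beside the Hoxa cluster, and Mtx2, beside the Hoxd cluster, were higher in iBAT. Hibadh, an enzyme of valine breakdown, stood at 446.7 to 982.1 CPM in iBAT and 161.6 to 729.0 in scWAT (0.77 ± 0.12, adjusted p = 3.0e-07). Snx10 fell with corticosterone in scWAT at 22 °C (-1.41 ± 0.26, adjusted p = 0.0019) and at 13 °C (-1.04 ± 0.26, adjusted p = 0.035), and Hibadh fell at 22 °C in scWAT (-0.95 ± 0.24, adjusted p = 0.017) and in goWAT (-0.89 ± 0.23, adjusted p = 0.025). No Hox gene was called in those 2 comparisons at 22 °C.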
